A study of Mus musculus with 11 samples.

Results

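Expression of 10 genes of the renin-angiotensin, endothelin and nitric oxide systems was described in the aortic arch of young mice. The 10 genes, out of 48709 mouse genes in the count table, were chosen by symbol: Agt, Ace, Agtr1a, Agtr1b and Agtr2 of the angiotensin system, Edn1, Ece1, Ednra and Ednrb of the endothelin system, and Nos3. Whole aortic arches were taken at postnatal day 11 for bulk RNA sequencing. There were 5 wild-type littermates (WT 1 to 5, Tgfbr2 +/+) and 6 heterozygotes with 1 G357W allele (Tgfbr2-G357W/+) of Tgfbr2, which encodes the type II TGF-beta receptor (Het 1 to 6). The title presents these mice as modelling type II of Loeys-Dietz syndrome, an inherited disease with aortic aneurysm. The labels name no treatment, and place the mutation in Tgfbr2 itself. The tissue was taken whole, so that fewer cells of a type and less RNA per cell cannot be told apart.

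These 3 systems set the tone of the vessel wall. Angiotensinogen, the product of Agt, is cut by renin and then by angiotensin-converting enzyme (Ace) to angiotensin II, which contracts smooth muscle through type 1 receptors, encoded in mice by Agtr1a and Agtr1b, and acts on a separate receptor encoded by Agtr2. Endothelin is made mainly by endothelium from a precursor encoded by Edn1, is matured by endothelin-converting enzyme (Ece1), and acts on Ednra of smooth muscle and Ednrb of endothelium and other cells. Endothelial nitric oxide synthase (Nos3) makes the gas that relaxes smooth muscle. Blockers of the type 1 angiotensin receptor are used in people with inherited aneurysm syndromes.

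Total counts per library were 13113467 to 19327935. A count of 0 allows up to 3 counts, which corresponded to 0.154 to 0.231 CPM (counts relative to library size, scaled by TMM). Xist reached 58.4 CPM or more in every WT library as well as Het 1 and Het 2, and was at 0.735 CPM or less in Het 3 to 6, where the Y-linked gene Ddx3y was at 86.4 CPM or more, so no WT library stands beside those 4. Tgfbr2 itself averaged 41.3 ± 4.29 CPM for WT (SD, n = 5) against 39.0 ± 8.22 CPM for Het (SD, n = 6), and counts per gene do not separate its alleles. The labels name smooth muscle and endothelial cells. The summed level of 8 smooth muscle markers was 33730 to 38350 CPM in WT and 30600 to 41660 CPM in Het, and that of 14 endothelial markers was 541.9 to 693 CPM in WT and 505.1 to 831.2 CPM in Het; no marker of either list was at 0 in every library. The summed levels of 2 other marker lists did not overlap between the groups. The summed level of 6 skeletal muscle markers was 18.7 to 41.2 CPM in WT and 7.1 to 14.6 CPM in Het, mostly Tnnt3. Of the 3 tested, Tnnt3 and Tnni2 fell, and Acta1 had a positive log2 fold change that did not pass. Tnni2 averaged 2.95 ± 1.58 CPM in WT and 0.40 ± 0.26 CPM in Het. It passed the low count filter through its WT counts, so that call is no support for the difference. Ckm, Myh4 and Myh1 were below the filter. The summed level of 6 cartilage markers was 10.8 to 17.2 CPM in WT and 32.9 to 69.1 CPM in Het, mostly Acan. Of the 4 tested, Acan rose, Sox9 fell, and Matn3 and Col9a1 had negative log2 fold changes that did not pass. Matn1 was at 0 in every library. Their part in the results below was not tested.

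Of the 10 genes, 8 had enough counts for the test and none of these 8 passed an adjusted p of 0.05 between Het and WT by edgeR's quasi-likelihood test, while 742 of 14757 genes did (5.03 percent: 2.65 percent higher and 2.38 percent lower in Het). DESeq2 called 8.78 percent of all genes and none of the 8. At an unadjusted p under 0.05 there was 1 of 8, Edn1, against 19.4 percent of all tested genes. The log2 fold change, Het over WT throughout and given with its SE, was positive for 5 of the 8 and negative for 3, with a median of 0.179 against -0.0046 for all tested genes. The 2 that the low count filter left out were Agt, which was nearly absent, and Agtr1b, which is the 1 member whose Het and WT libraries did not overlap. Such separation, in either direction, was found in 4.61 percent of the tested genes.

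**Figure D1:**
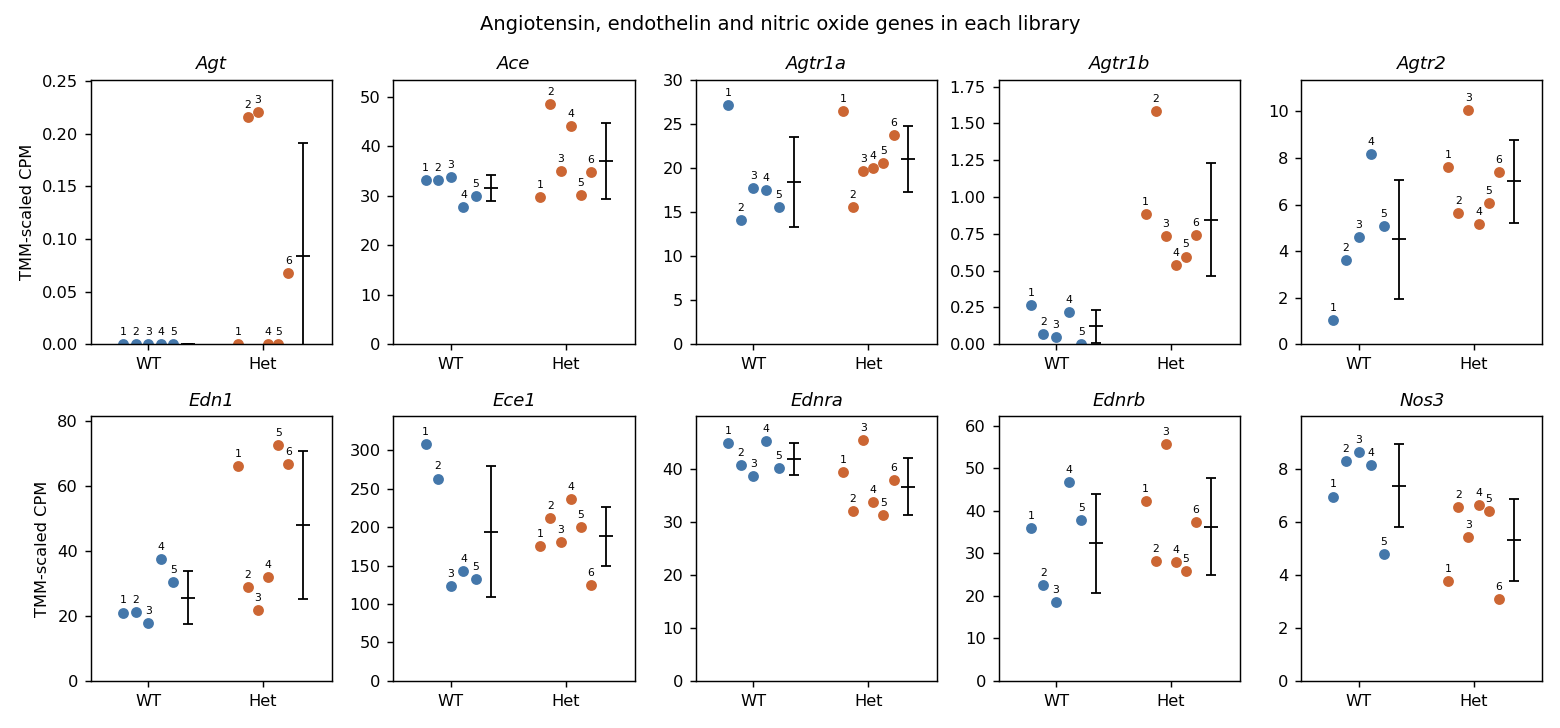
TMM-scaled CPM of the 10 genes (y axis, linear, from 0) in 5 WT (blue) and 6 Het (orange) libraries, each point 1 library with its replicate number; the bar beside each group is the mean ± SD. Agtr1b is higher in all 6 Het libraries (0.538 to 1.59 CPM) than in any WT library (at most 0.265 CPM), and every other panel has overlapping groups.

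The 2 type 1 receptor genes are near copies, so the bases that tell their reads apart are shown first. Agtr1a (ENSMUSG00000049115) lies at 30336441 to 30382867 on the plus strand of chromosome 13 of GRCm38, and Agtr1b (ENSMUSG00000054988) at 20314473 to 20367177 on the minus strand of chromosome 3. Their coding sequences of 1080 bases each, stop codon included, differ at 99 bases (90.8 percent identical). The reads of this study were 75 bases long. The stretch of 75 coding bases with the fewest differences, coding bases 60 to 134 in both genes (chr13:30381013-30381087, plus strand, and chr3:20316307-20316381, minus strand), has 1, in capitals:
Agtr1a: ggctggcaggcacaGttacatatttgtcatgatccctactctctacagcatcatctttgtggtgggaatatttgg
Agtr1b: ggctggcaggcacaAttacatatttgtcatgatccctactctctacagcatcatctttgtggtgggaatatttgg

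The stretch with the most differences, coding bases 980 to 1054 near the end of the coding sequence (chr13:30381933-30382007, plus strand, and chr3:20315387-20315461, minus strand), has 18, again in capitals:
Agtr1a: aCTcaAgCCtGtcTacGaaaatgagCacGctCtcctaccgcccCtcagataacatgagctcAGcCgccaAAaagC
Agtr1b: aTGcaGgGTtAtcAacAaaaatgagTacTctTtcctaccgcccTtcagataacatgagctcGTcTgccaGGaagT

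The median over all 1006 such stretches was 6 differences. Of the 2136 different runs of 75 bases in the annotated Agtr1b transcripts, 0 occurred in an Agtr1a transcript, and the longest run that both genes share was 66 bases. A full read without errors therefore differs by at least 1 base from the other gene, although how the authors' counting treated reads with a second near match is not given in the sources used here.

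Agtr1a was the more abundant of the pair in every library. It was at 27.2, 14.1, 17.8, 17.5 and 15.6 CPM in WT 1 to 5, and in Het its lowest, median and highest values were 15.6, 20.3 and 26.5 CPM. WT 1 stands above the other WT libraries and the Het values lie inside the WT range. The difference of 0.19 ± 0.17 on the log2 scale was not detectable at this spread (adjusted p = 0.601); it was 0.108 without WT 2 and 0.371 without WT 1.

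Agtr1b was at the limit of detection in WT and above it in Het. The counts were 4, 1, 1, 3 and 0 in WT 1 to 5 and 12, 22, 10, 7, 11 and 11 in Het 1 to 6. The CPM averaged 0.121 ± 0.115 for WT (SD, n = 5) against 0.847 ± 0.382 for Het (SD, n = 6), a ratio of means of 7.02. In WT, 4 of 5 libraries lay at or under the limit of 3 counts, and all 6 Het libraries lay above it; Het was above WT without overlap for 1.34 percent of all genes with a count. Het 1 and Het 2, which have Xist as the WT libraries do, were at 0.887 and 1.59 CPM and so above every WT library. With no low count filter, a fit chosen after the values were seen, edgeR's quasi-likelihood test over 28729 genes placed Het 2.74 ± 0.70 above WT on the log2 scale (adjusted p = 0.0277); 1.21 percent of those genes were called higher in Het.

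Agtr1b passed that test in 7 of 11 fits that left out 1 library each. It did not pass without WT 2, WT 3, WT 5 or Het 2 (adjusted p = 0.071, 0.0801, 0.056 and 0.102), nor with a score of Y-linked genes against Xist (the sex score) as covariate (0.0723), in the 7 Xist-positive libraries alone (0.202), or when the unexplained 6 or 7 in each column name was a covariate (0.0756). That number was 6 in WT 3 and in Het 1, 2, 4 and 5, and 7 in all other libraries. It is therefore partly confounded with genotype. The log2 fold change stayed between 2.46 and 3.28 in these edgeR fits and was 2.83 ± 0.71 with DESeq2 (adjusted p = 0.0038). With few counts the size is poorly fixed: on the scale of log2 of the deposited CPM with 1 added it was 0.70 ± 0.15 (limma, adjusted p = 0.0111).

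**Figure D2:**
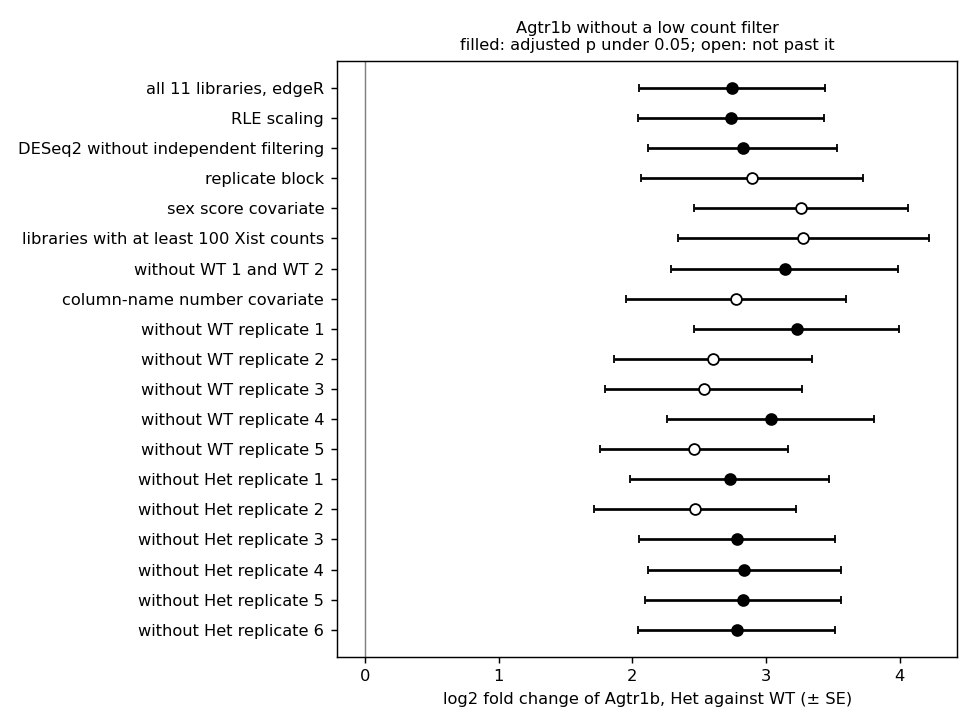
Log2 fold change of Agtr1b, Het against WT (x axis), with its SE, in fits of the counts without a low count filter: all 11 libraries by edgeR, RLE scaling, DESeq2, covariates, sets of libraries, and single libraries omitted; the limma fits of the deposited CPM are not plotted. The plotted values lie between 2.46 and 3.28; filled points passed an adjusted p of 0.05 and open points did not.

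Agtr1b counts were a small part of the counts of the pair. Summed over libraries, 9 of 1423 type 1 receptor counts came from Agtr1b in WT (0.632 percent, exact 95 percent binomial interval 0.29 to 1.2) and 73 of 1910 in Het (3.82 percent, 3.01 to 4.78). By library the share was at most 1.24 percent in WT and 2.61 to 9.24 percent in Het, with Het 2 the highest. These intervals cover counting error only.

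Agtr2 (ENSMUSG00000068122, chromosome X, 21484544 to 21489164) was at 1.06, 3.62, 4.62, 8.16 and 5.08 CPM in WT 1 to 5. In Het its lowest, median and highest values were 5.15, 6.74 and 10.1 CPM. All 6 Het libraries lay above the WT median and 1 above the highest WT library, a log2 difference of 0.64 ± 0.35 that did not pass (adjusted p = 0.34) and was 0.383 without WT 1. The log2 ratio of Agtr1a to Agtr2 averaged 2.08 ± 1.20 for WT (SD, n = 5) against 1.54 ± 0.33 for Het (SD, n = 6), a difference of -0.54 with an exact permutation p of 0.407 (two-sided, 0.446 adjusted over the 6 ratios tested). WT 1 had the most Agtr1a and the least Agtr2, and without WT 1 and WT 2 the difference was 0.06.

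Of the upstream genes of the angiotensin system, the precursor was nearly absent and the converting enzyme was well detected. Agt (ENSMUSG00000031980, chromosome 8, 124556534 to 124569706) had no count in any WT library or in Het 1, 4 and 5, 3 counts in Het 2 and in Het 3, and 1 in Het 6. All of these are at or under the limit of 3 counts, so no level can be given. Of 6 hepatocyte markers, genes of the organ that makes most circulating angiotensinogen, Apoa2 and Fga had 0 counts in every library and the list's sum was at most 0.517 CPM. Ace (ENSMUSG00000020681, chromosome 11, 105967945 to 105989964) was at 33.2, 33.2, 33.7, 27.8 and 30.0 CPM in WT 1 to 5. In Het its lowest, median and highest values were 29.8, 34.9 and 48.5 CPM. Het 2 and Het 4 stood above all others, and the SD was 2.59 CPM for WT against 7.62 CPM for Het. Ace was 0.23 ± 0.13 higher on the log2 scale, which did not pass (adjusted p = 0.363), and 0.141 higher without Het 2.

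Of 13 tested genes among 16 others of the renin-angiotensin system, 1 rose and none fell, beside 2.65 and 2.38 percent of all tested genes. The list's median log2 fold change was -0.016. At an unadjusted p under 0.05 there were 1 higher and 1 lower, beside 19.4 percent of all tested genes in either direction. The gene that rose was Enpep, glutamyl aminopeptidase, which removes the first residue of angiotensin II. Enpep was at 5.36, 4.82, 8.37, 7.42 and 6.50 CPM in WT 1 to 5 and at 14.3, 16.1, 14.0, 15.3, 18.3 and 11.2 CPM in Het 1 to 6. The groups did not overlap, and Enpep was 1.19 ± 0.17 higher on the log2 scale (adjusted p = 7.69e-04).

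Enpep passed in all 11 fits that left out 1 library, with the highest adjusted p at 0.00277. It also passed with the sex score (log2 fold change 1.21 ± 0.23, adjusted p = 0.0278), and it did not in the 7 Xist-positive libraries alone (1.23 ± 0.24, adjusted p = 0.0897). Pericytes carry this peptidase too. The summed level of 6 pericyte markers was 475.4 to 544.9 CPM in WT and 531.3 to 571.9 CPM in Het, with none at 0 in every library. Of 5 tested, Cspg4 and Notch3 rose, beside 2.65 percent of all tested genes. Kcnj8, Abcc9 and Pdgfrb did not pass, with log2 fold changes of -0.03, -0.14 and 0.07, and Higd1b was below the filter. The part of pericytes in the Enpep difference was not tested.

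Other angiotensin genes showed no detected difference. The receptor-associated protein Agtrap averaged 17.9 ± 2.18 CPM (WT) against 18.6 ± 1.87 CPM (Het), a log2 difference of 0.05 ± 0.12 (adjusted p = 0.86). Mme, neprilysin, which degrades angiotensin and endothelin peptides, was at 3.31 ± 1.44 and 4.52 ± 1.47 CPM (0.46 ± 0.32, adjusted p = 0.476). Renin (Ren1), which makes the first cut in angiotensinogen, was below the filter, at no more than 0.944 CPM in any library.

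Edn1 (ENSMUSG00000021367, chromosome 13, 42301476 to 42307990) had the largest positive fold change among the 8 tested genes and a wide spread in Het. It was at 21.05, 21.2, 17.9, 37.5 and 30.35 CPM in WT 1 to 5 and at 66.1, 28.9, 21.75, 31.9, 72.6 and 66.7 CPM in Het 1 to 6. Het 1, 5 and 6 lay above every WT library, and Het 2, 3 and 4 lay inside the WT range. The mean was 25.6 ± 8.11 CPM for WT (SD, n = 5) against 48.0 ± 22.8 CPM for Het (SD, n = 6). On the log2 scale Edn1 was 0.91 ± 0.33 higher (edgeR, unadjusted p = 0.0155, adjusted p = 0.138), and the adjusted p ranged over 0.0527 to 0.289 when single libraries were left out.

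The genes whose log2 CPM followed Edn1 most closely over the 11 libraries were Nudt4 (Pearson r = 0.92, Spearman 0.918), Rasl11a (0.915 and 0.955) and Ccn1 (0.913 and 0.909), a matricellular gene of the immediate early class. These were picked as the closest of all genes with a mean of at least 1 CPM, so the values describe 11 libraries that also share a group structure, and no p is given. Ccn1 averaged 67.3 ± 60 CPM (WT) against 139 ± 123 CPM (Het), a log2 difference of 1.05 ± 0.79 (adjusted p = 0.53). Among the 8 tested members, Edn1 and Nos3 had the most negative correlation of any pair (Pearson r = -0.647, Spearman -0.645): Nos3 was lowest in Het 1 and Het 6, where Edn1 was high, but was 6.39 CPM in Het 5, which had the most Edn1.

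Ece1 (ENSMUSG00000057530, chromosome 4, 137862237 to 137965229), which cuts the endothelin precursor to the active peptide, was the most abundant member per length of transcript. It was at 308.6, 263.3, 123.5, 143.1 and 132.8 CPM in WT 1 to 5. In Het its lowest, median and highest values were 124.2, 190.3 and 236.6 CPM. WT 1 and WT 2 stood apart from the other 3 WT libraries, and all Het values fell between these 2 sets or inside the lower one. Its log2 difference was -0.05 ± 0.24 (adjusted p = 0.953); without WT 1 and WT 2 it was 0.50 (adjusted p = 0.118). The genes picked as closest to Ece1 across libraries, in the same way as for Edn1, were Ctnna1 (r = 0.971), Dido1 (0.956) and Pmvk (0.943).

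The endothelin receptors showed no detected difference. Ednra (ENSMUSG00000031616, chromosome 8, 77663031 to 77724464) was at 44.96, 40.7, 38.6, 45.2 and 40.1 CPM in WT 1 to 5, and at 31.2, 35.8 and 45.5 CPM as lowest, median and highest in Het. Het 2, 4, 5 and 6 lay below every WT library and Het 3 above them all, for a log2 difference of -0.19 ± 0.11 (adjusted p = 0.343). Ednrb (ENSMUSG00000022122, chromosome 14, 103814625 to 103844402) was at 36.0, 22.5, 18.5, 46.8 and 37.9 CPM in WT 1 to 5. In Het it was at 25.8, 32.9 and 55.8 CPM as lowest, median and highest. The groups overlapped broadly, with a log2 difference of 0.17 ± 0.25 (adjusted p = 0.777) that was 0.0049 without Het 3, 0.338 without WT 4 and 0.513 with the column-name number as covariate.

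Both receptors were highest of the Het group in Het 3 and lower in Het 2, 4 and 5, and their Pearson r of 0.556 was the highest of any pair of tested members (11 libraries). By rank the pair (Spearman 0.573) came after Agtr2 with Ednrb (0.709) and Agtr2 with Edn1 (0.6). The log2 ratio of Ednra to Ednrb was 0.44 ± 0.48 in WT and 0.05 ± 0.22 in Het, a difference of -0.39 ± 0.23 (SE) with an exact permutation p of 0.13 (two-sided, 0.195 adjusted over 6 ratios). Ednrb is also a gene of neural crest derivatives. The sum of 7 Schwann cell and glial markers was 17.3 to 24.1 CPM in WT and 12.3 to 25.6 CPM in Het. The sum of 6 melanocyte markers was 18 to 42.97 CPM in WT and 10.3 to 26.6 CPM in Het, mostly Mitf (mean 24.8 and 16.4 CPM). Pmel had 8 to 34 counts per library, Dct at most 13, Tyrp1 and Mlana at most 4 each, and Tyr 0 in every library. The part of these cell types in the Ednrb level was not tested.

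Of 6 tested genes among 8 others of the endothelin system, none passed in either direction by edgeR, with a median log2 fold change of 0.094. At an unadjusted p under 0.05 0 passed, and 0 by DESeq2. The shares of all tested genes were 5.03 percent by edgeR, 19.4 percent unadjusted and 8.78 percent by DESeq2. Ece2, a second converting enzyme, averaged 40.1 ± 2.20 CPM (WT) against 45.1 ± 3.18 CPM (Het), a log2 difference of 0.17 ± 0.08 (adjusted p = 0.283), and 5 of 6 Het libraries lay above the highest WT library. The other ligand genes Edn2 and Edn3 were below the filter, at no more than 0.449 and 1.75 CPM in any library.

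Nos3 (ENSMUSG00000028978, chromosome 5, 24364810 to 24384474) had the most negative fold change of the 8 tested members. It was at 6.95, 8.31, 8.63, 8.16 and 4.78 CPM in WT 1 to 5 and at 3.77, 6.56, 5.44, 6.62, 6.39 and 3.10 CPM in Het 1 to 6. No Het library reached the WT median, and Het 1 and Het 6 lay below the lowest WT library, WT 5. The log2 difference of -0.47 ± 0.23 did not pass (adjusted p = 0.27). Libraries do not mark strand here, and 25.2 percent of the Nos3 exon bases are shared with the antisense gene Gm15587 and 7.12 percent with Atg9b on the other strand. These had at most 5 and 7 counts in any library, against 46 to 168 for Nos3. How reads in the shared bases were counted is not given, and their effect on the Nos3 level was not tested.

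Nos3, Edn1, Ednrb and Ace are all genes of endothelium, though not only of it, and their levels were also taken relative to the summed level of 14 endothelial markers. The log2 difference of Het against WT in this ratio was -0.39 ± 0.23 for Nos3 (exact permutation p = 0.117, two-sided), 0.86 ± 0.43 for Edn1 (exact permutation p = 0.13), 0.25 ± 0.32 for Ednrb (exact permutation p = 0.446) and 0.27 ± 0.14 for Ace (exact permutation p = 0.0866). None passed after adjustment over the 6 ratios (0.195, 0.195, 0.446 and 0.195). Pecam1 made up 296 of the mean sum of 628.7 CPM in WT, and relative to the mean log2 of the markers, which weights them equally, the differences were -0.63 for Nos3, 0.62 for Edn1, 0.016 for Ednrb and 0.036 for Ace. Without WT 3 the Ednrb ratio differed by 0.038, and without WT 1 and WT 2 the Ace ratio differed by 0.453 and the Nos3 ratio by -0.216. The endothelial markers themselves did not move as 1: of 13 tested, 9 had a positive and 4 a negative log2 fold change. The list's median log2 fold change was 0.228. By edgeR 0 passed an adjusted p of 0.05 and 5 an unadjusted p under 0.05 (4 higher and 1 lower in Het), beside 5.03 and 19.4 percent of all tested genes. Pecam1 averaged 296 ± 59.8 CPM (WT) against 243 ± 50.1 CPM (Het), a log2 difference of -0.28 ± 0.15 (adjusted p = 0.317). Emcn was at 4.12 ± 2.52 and 10.1 ± 3.67 CPM (1.30 ± 0.44, adjusted p = 0.107), and Cldn5 at 45.5 ± 6.68 and 27.4 ± 11.6 CPM (-0.73 ± 0.23, adjusted p = 0.087).

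Of 25 tested genes among 28 others of nitric oxide synthesis and response, 2 rose and none fell, beside 2.65 and 2.38 percent of all tested genes. The list's median log2 fold change was 0.059. At an unadjusted p under 0.05 there were 3 higher and 3 lower, beside 19.4 percent of all tested genes in either direction. Those 3 lower genes did not pass adjustment: Ddah2, a relative of Ddah1, averaged 197 ± 26.3 CPM (WT) against 166 ± 18.9 CPM (Het), a log2 difference of -0.25 ± 0.10 (adjusted p = 0.177), and the others were Irag1 (-1.02 ± 0.40, adjusted p = 0.184) and Arg1 (-1.14 ± 0.48, adjusted p = 0.207). Nos2, the inducible synthase, was at 0.397, 0.134, 0.411, 0.367 and 0.822 CPM in WT 1 to 5 and at 1.63, 2.88, 5.07, 1.69, 0.704 and 0.877 CPM in Het 1 to 6. Het 5 was inside the WT range and the other 5 Het libraries were above it, and Nos2 was 2.31 ± 0.56 higher on the log2 scale (adjusted p = 0.0251). Nos2 counts were 6, 2, 8, 5 and 11 in WT 1 to 5 and 13 to 69 in Het. It passed the low count filter through its Het counts, so that call is no support for the difference. With no filter Nos2 was 2.31 ± 0.53 higher (edgeR, adjusted p = 0.0117). Ddah1, which breaks down methylarginines that inhibit the synthases, was at 3.71, 3.02, 9.50, 6.03 and 4.19 CPM in WT 1 to 5 and at 6.50, 12.5, 11.7, 17.6, 11.7 and 11.1 CPM in Het 1 to 6. Het 1 was inside the WT range and the other 5 were above it, and Ddah1 was 1.15 ± 0.29 higher on the log2 scale (adjusted p = 0.0317).

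The calls of Nos2 and Ddah1 depended on single libraries. Nos2 passed in 6 of 11 fits that left out 1 library, and its call ended without either of Het 2 and 3 or any of WT 1, 2 and 3 (adjusted p at most 0.0666, without WT 2). Ddah1 passed in 4 of 11, and its call ended without any of Het 2, 4, 5 and 6 or of WT 1, 2 and 5 (adjusted p at most 0.0781, without WT 2). Neither passed when the sex score was a covariate (adjusted p = 0.13 for Nos2 and 0.432 for Ddah1), nor in the Xist-positive libraries (0.193 and 0.597) or without WT 1 and WT 2 (0.128 and 0.161). With the sex score the log2 fold change was 2.60 ± 0.71 for Nos2 and 0.84 ± 0.37 for Ddah1. Nos2 is a gene of activated macrophages as well as of the vessel wall; the sum of 6 macrophage markers was 31.4 to 94.2 CPM in WT and 34.2 to 107.5 CPM in Het, none of them at 0 in every library, and their part in the Nos2 difference was not tested.

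**Figure D3:**
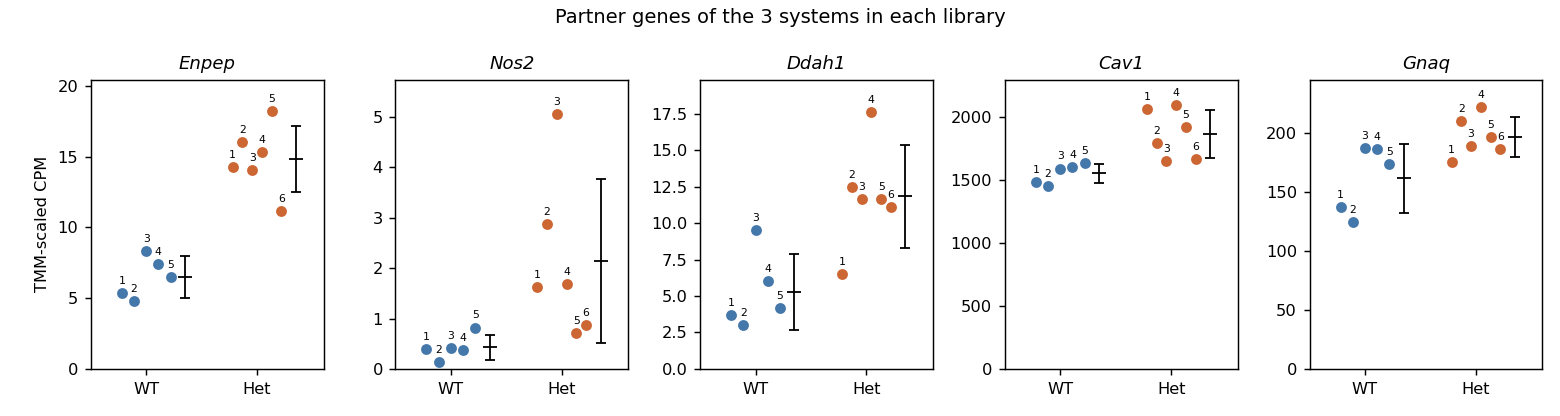
TMM-scaled CPM (y axis, linear, from 0) of Enpep, Nos2, Ddah1, Cav1 and Gnaq in 5 WT (blue) and 6 Het (orange) libraries, with replicate numbers and the mean ± SD of each group. Enpep (11.2 CPM or more in Het, at most 8.37 CPM in WT) and Cav1 do not overlap between the groups, while 1 Het library of Nos2 and of Ddah1 lies inside the WT range.

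The other genes around nitric oxide did not pass. Caveolin 1 (Cav1), the membrane protein that binds and holds back Nos3, averaged 1553 ± 78.1 CPM (WT) against 1867 ± 192 CPM (Het), with all 6 Het libraries above every WT library (log2 fold change 0.26 ± 0.08, adjusted p = 0.0821); it passed by DESeq2 (adjusted p = 0.0293). The receptor of nitric oxide in smooth muscle, soluble guanylate cyclase, showed no detected difference, with log2 fold changes of 0.06 ± 0.09 for Gucy1a1 (adjusted p = 0.778) and -0.03 ± 0.08 for Gucy1b1 (adjusted p = 0.884). The cyclic GMP-dependent kinase Prkg1 was at 5.45 ± 1.27 and 7.10 ± 1.12 CPM (0.38 ± 0.20, adjusted p = 0.311). Neuronal synthase Nos1 was below the filter, at no more than 1.25 CPM in any library.

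Coupling of the angiotensin and endothelin receptors runs through Gq and G12/13 proteins and phospholipase C. Of 24 tested genes among 26, none passed in either direction by edgeR, with a median log2 fold change of 0.030. At an unadjusted p under 0.05 3 passed, all higher in Het, and 1 passed by DESeq2. The shares of all tested genes were 5.03 percent by edgeR, 19.4 percent unadjusted and 8.78 percent by DESeq2, each in either direction. Gnaq, the alpha subunit of Gq, averaged 162 ± 29.3 CPM (WT) against 197 ± 17.1 CPM (Het) (0.28 ± 0.11, adjusted p = 0.169). Plcb1, a phospholipase C, differed by 0.02 ± 0.10 on the log2 scale (adjusted p = 0.938). Of the regulators that switch Gq off, Rgs5 was at 6982 ± 1790 and 7159 ± 1120 CPM (0.04 ± 0.15, adjusted p = 0.939), and Rgs2 at 16.1 ± 9.88 and 9.27 ± 6.01 CPM (-0.81 ± 0.42, adjusted p = 0.323), with 4 of 6 Het libraries below every WT library.

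Most transcripts known to be induced by angiotensin II or endothelin in vessel cells did not pass. Of 17 tested among 20, 1 rose and 1 fell, beside 2.65 and 2.38 percent of all tested genes, and 15 did not pass; the median log2 fold change was 0.191. Ccl2, a chemokine that draws monocytes, averaged 3.14 ± 1.29 CPM (WT) against 8.19 ± 3.92 CPM (Het) (1.38 ± 0.35, adjusted p = 0.0308), and its call ended when any of 7 libraries was left out, namely WT 1, 2, 3 and 5 and Het 2, 3 and 6 (adjusted p at most 0.0619, without WT 2). Thbs1, thrombospondin 1, was at 45.0 ± 6.49 and 25.9 ± 5.69 CPM (-0.80 ± 0.14, adjusted p = 0.00368), with all 6 Het libraries below every WT library. Neither passed with the sex score (1.425 ± 0.46 for Ccl2 and -0.58 ± 0.18 for Thbs1, adjusted p = 0.24 and 0.222).

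**Figure D4:**
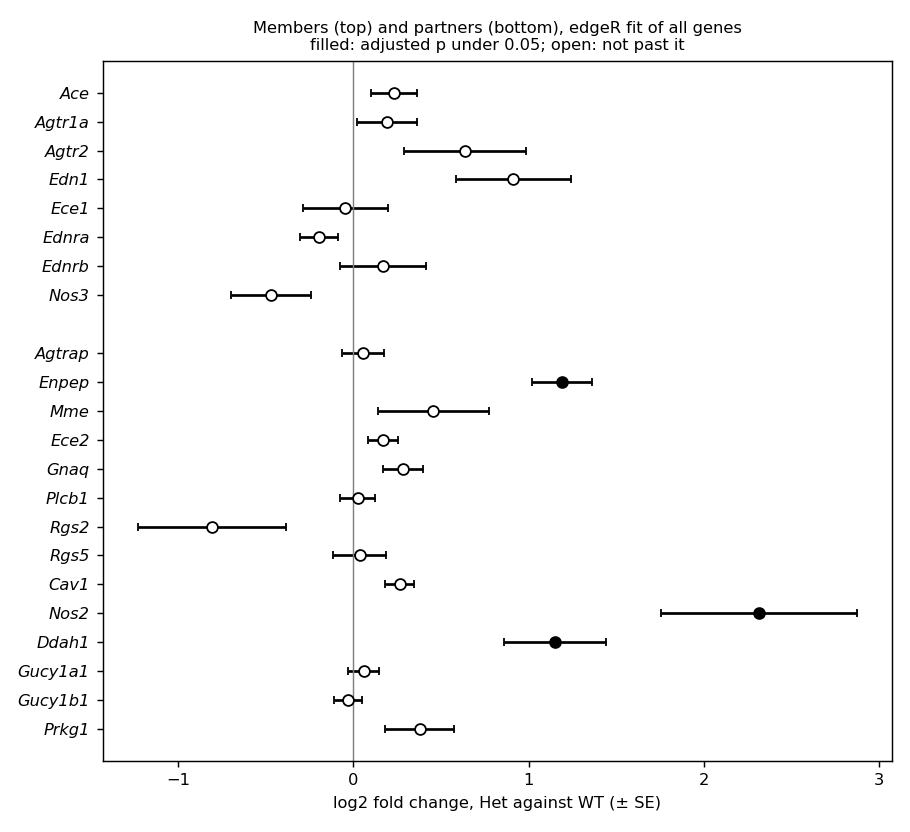
Log2 fold change of Het against WT (x axis) with its SE from the edgeR fit of all genes, for the 8 tested members (top) and 14 partner genes (bottom). Filled points, Enpep, Nos2 and Ddah1, passed an adjusted p of 0.05; no member did, and among members Edn1 has the highest and Nos3 the lowest value.

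Levels of different genes were compared per kilobase of exon (CPM per kb, exons of GENCODE M21 merged per gene). The order over the 11 libraries was Ece1 at 36.0, Edn1 at 17.7, Ednrb at 8.09, Agtr1a at 7.13, Ednra at 7.12, Ace at 6.54, Agtr2 at 1.76, Nos3 at 1.51, Agtr1b at 0.241 and Agt at 0.0242 CPM per kb. Ece1 was above Edn1 in 10 of 11 libraries and Edn1 above Ednrb in 10 of 11, though the ranges of both pairs overlapped. Ednrb, Agtr1a, Ednra and Ace were not separated from their neighbours beyond their spread, with 5 to 8 of 11 libraries in the stated order for each pair. Ace was above Agtr2 in 11 of 11 libraries without overlap, and so was Nos3 above Agtr1b. Agtr2 and Nos3 overlapped, with Agtr2 higher in 7 of 11. The Nos3 length includes the exon bases shared with Gm15587 and Atg9b, where the counting is not known, so its place beside Agtr2 is not fixed. The order of the means differed between the groups. In WT the mean of Nos3 (1.78 ± 0.381, SD) was above that of Agtr2 (1.36 ± 0.772). Ednra (7.65 ± 0.548) was the highest of the middle 4 there, beside Ednrb at 7.58 ± 2.73. In Het Agtr2 (2.1 ± 0.54) was above Nos3 (1.29 ± 0.37), and Ednra (6.69 ± 0.988) was the lowest of the middle 4. These changes of order were not tested, and none of these genes passed between Het and WT.

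The closest genes of the other tested members over the 11 libraries are given as description. They too were picked from all genes with a mean of at least 1 CPM, so high values follow from the pick and no p is given. The 3 closest by Pearson r were Galnt18 (0.895), ENSMUSG00000093561 (0.854) and Zfp1 (0.847) for Agtr1a, and Ascc3 (0.971), Map4k3 (0.96) and Gm45073 (0.946) for Agtr2. They were Btbd2 (0.887), 3110082I17Rik (0.885) and Dnajb11 (0.859) for Ace, and Necab1 (0.909), Fap (0.881) and Col5a3 (0.877) for Ednra. For Ednrb they were Ap5s1 (0.925), Trmt9b (0.894) and Gm20056 (0.882), and for Nos3 Tars (0.949), Hexa (0.933) and Entr1 (0.931). By rank the lowest of these values was 0.673, for Dnajb11 with Ace (Spearman). No gene was among the closest 3 of 2 members, from which nothing is concluded given such a pick.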

How the data were processed

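Aortic arch RNA of 11 mice was sequenced per the labels' protocols from unstranded Nextera XT libraries as single reads of 75 nt, pooled over 2 runs. The deposited table of counts holds whole numbers per Ensembl gene for 48709 mouse genes and 24 other rows (at most 8.1e-05 percent of counts, not used). A filtered table repeats 19629 of its rows with identical values. The third deposited table, named TMM-normalized CPM and treated as a signal since its columns sum to 966683 to 1026471, served for an alternative test; Agt is not among its rows and was read from the counts. Per the submitters' processing notes the build was GRCm38 and STAR 2.5.2a was used, beside limma, edgeR and DESeq2 in unstated roles; the counting tool was not given in the sources used here.

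Both genotypes were compared with the robust quasi-likelihood test of edgeR 4.0.16 in R 4.3.3, on counts kept by filterByExpr (minimum count 10, minimum total 15; 14757 genes) with TMM factors of 0.979 to 1.031, in 1 fit of the 11 libraries with no covariate, and Benjamini-Hochberg adjusted p under 0.05 was called. CPM values use these factors. The SE of a fold change is its size over the square root of F. Ratios have 0.5 CPM added and were tested by exact permutation. Nothing but the count of mice says that libraries are separate animals. The members and lists were chosen with earlier results of these data known, and the rule for named genes took all members, fixed partners, list genes past the threshold, and the 3 closest genes of each member. Pecam1, Emcn, Cldn5, Ddah2, Irag1, Arg1 and the pericyte, skeletal muscle, melanocyte and cartilage markers were named from the lists after their values were seen. So were Acta2 and Cnn1. Irag1 was read as Mrvi1, its symbol in GENCODE M21. The test was tried on simulated data with known changes. It recovered 10.4 percent of 1.5-fold, 92.5 percent of 2-fold and 100 percent of 4-fold changes, with 6 false calls among 141. Changes of 1.5-fold were thus mostly missed there, and a gene that did not pass is not shown to be unchanged. Alternatives were other scalings and filters, DESeq2 1.42.0, limma 3.58.1, a replicate block, a sex score (4 Y-linked genes against Xist), the number in the column names, sets of libraries and each library left out.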

Additional observations from a re-analysis of the deposited data

Results flagged for a closer look

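In 31 groups of values (members and ratios, by genotype), 3 held a library far from the rest; chance flags about 1 group in 20. Agtr1a in WT 1 was at 27.15 CPM, and the next WT library at 17.8 CPM. The log2 ratio of Agtr1a to Agtr2 in the same library was 4.15, and the next at 1.84. Agtr1b in Het 2 was at 1.585 CPM, and the next Het library at 0.887 CPM.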

How the results depend on the processing

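Of the 8 tested members none passed in any fit. Agtr1b was called, as 1 member, with no filter, without WT 1 and WT 2, and without WT 4 or WT 5 (0 to 1 members over fits leaving out 1 library). In the filtered fits it entered only through its Het counts, so those calls are no support for the difference. Ece1 changed sign, with log2 fold changes of 0.033 (limma voom), 0.036 (limma trend on the deposited CPM, pseudocounts 1 and 0.5), 0.15 (replicate block), 0.00048 (Xist-positive libraries), 0.498 (without WT 1 and WT 2), and 0.0509 to 0.183 without WT 1, WT 2 or Het 6 (-0.173 to 0.183 over all left out), and so did the ratio of Agtr1a to Agtr2 (0.065 without WT 1 and WT 2); the cause was not tested. The number of genes past the threshold, 742, was 1295 with DESeq2, 332 with the replicate block, 123 with the sex score, 34 in the Xist-positive libraries, 432 without WT 1 and WT 2, 415 with the column-name number and 458 to 853 over libraries left out. Same-numbered libraries did not deviate together (r = -0.21 to 0.059, and 1 of 10 correlated best with its own number). The labels do not say whether equal numbers mark pairs, and these correlations cannot decide it. Agtr1b did not pass with the block (edgeR without a filter, adjusted p = 0.054). Nitric oxide genes that rose (2) were 1 with limma voom, the block or the column-name number, and 1 with the stricter filter, which left Nos2 out of the test. They were 0 with the sex score, in the Xist-positive libraries or without WT 1 and WT 2, and 0 to 2 over libraries left out. Induced transcripts that rose (1) were 2 with DESeq2 or no filter, 0 with the block, the sex score, the Xist-positive libraries or without WT 1 and WT 2, and 0 to 2 over libraries left out; those that fell (1) were 0 with the sex score or in the Xist-positive libraries. Receptor coupling genes that rose (0) were 1 with upper quartile scaling, DESeq2, limma voom, both limma trend fits or without WT 1 and WT 2, and 0 to 1 over libraries left out. Endothelin genes that rose (0) were 1 without WT 1 and WT 2, and renin-angiotensin genes (1) were 0 in the Xist-positive libraries. Genes at the limit of 3 counts, Agt above all, allow no statement on a change.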
